A study of Mus musculus with 4 samples.

Results

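Matrix metalloproteinases (MMPs) and tissue inhibitors of metalloproteinases (TIMPs) were described here in mesenchymal stromal cells (MSC) of the mouse small intestine and colon, as 9 listed genes of the 28692 genes in the count tables. The members were Mmp2, Mmp3, Mmp10, Mmp14, Mmp19, Mmp23, Timp1, Timp2 and Timp3, taken by name from the UMI counts of every library, and all 9 were detected. MSC came from the lamina propria, the connective tissue under the epithelium, of untreated female C57BL6/Nrj mice aged 8 to 10 weeks, in 2 independent experiments with 3 mice each. Each intestine gave 2 single-cell libraries, named small intestine 1 and 2 and colon 1 and 2 after their replicate numbers. No genotype, treatment or time point separated the groups, so the only labelled contrast between the groups was the intestine. The libraries also differed with their replicate number. Median depth per kept cell was 6948 and 8809 UMIs in small intestine 1 and colon 1. It was 2686.5 and 3850 UMIs in small intestine 2 and colon 2. Cells had been sorted as live Itgb1+ cells negative for CD45, Ter119, CD31, BP3, EpCAM and L1CAM after the muscle layer had been removed. Mice of an experiment were pooled, so p-values measure the spread between these libraries and not between single mice. The experiments were independent, but the labels do not state which experiment each library came from.

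MMPs are zinc-dependent endopeptidases that cut collagens, proteoglycans, adhesion proteins and each other, and most are secreted or displayed as inactive proenzymes. TIMPs are small secreted proteins that occupy the active site of MMPs. In connective tissue fibroblasts (FB) are a main source of both, and the balance between them sets how fast matrix under an epithelium is turned over.

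The 4 libraries held 2061, 16795, 2590 and 13537 cell barcodes and between 14341443 and 52269372 UMIs, and 27529 cells entered 5 classes, 14434 from small intestine and 13095 from colon. PDGFRα-high FB lie directly under the epithelium and carry Pdgfra, F3 and Bmp ligands. CD81+ FB carry Cd81, Pi16 and Grem1. Other FB are the remaining FB, which include Fgfr2+ FB and, by their markers, Igfbp5+ FB of small intestine and CD90+ (Thy1) FB of colon. SMC are smooth muscle cells, and pericytes are mural cells of small vessels. The PDGFRα-high marker list summed to 2880 to 4301 CPM (UMIs of a gene per 1000000 UMIs of the class) in its own class and to at most 608 CPM in any other, and the CD81+ list to 2906 to 4454 CPM in its own class and at most 1926 CPM elsewhere. These marker lists themselves assigned the cells, so their sums describe the classes and are no check of them. No member was used to assign a cell. The pericyte and SMC sums of small intestine 2 stood apart. General FB markers summed to 24914 CPM in its 47 pericytes against 3733 to 7390 CPM in the pericytes of the other libraries, and to 17928 CPM in its 230 SMC against 5955 to 10699 CPM. Calls of members in these sums are therefore also given without that library. Small intestine 2 and colon 2 shared 69 barcodes (0.510% of the smaller set), and the other pairs shared at most 8. Barcode sets and the Cell Ranger version went with the replicate number and not with the intestine.

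Mmp3 and Mmp10 encode the stromelysins, secreted enzymes that degrade proteoglycans and laminin and activate other proenzymes. These genes carried the largest differences between intestines among the members, and they are neighbours on chromosome 9 of mm10 (GRCm38), both on the plus strand. Mmp3 (ENSMUSG00000043613) spans chr9:7445822-7455975, and Mmp10 (ENSMUSG00000047562) spans chr9:7502352-7510240, with 46376 bases from the end of one to the start of the other. The 250 bases before the RefSeq start of each gene are printed because only these, of 8 promoter entries for 7 of the members, held both motifs searched. One was TGANTCA, the letters bound by AP-1 (Fos and Jun dimers) and equal to its own reverse complement. The other was the TATA box letters TATAAA or, on the other strand, TTTATA. Matches are in capitals, and the windows are from RefSeq on GRCm38.p6, chr9:7445572-7445821 for Mmp3 and chr9:7502092-7502341 for Mmp10.

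Mmp3: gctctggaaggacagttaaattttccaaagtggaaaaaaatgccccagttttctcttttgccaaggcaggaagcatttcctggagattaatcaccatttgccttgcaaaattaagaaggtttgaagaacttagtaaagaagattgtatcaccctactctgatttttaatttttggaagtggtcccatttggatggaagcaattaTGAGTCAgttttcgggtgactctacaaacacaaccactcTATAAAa
Mmp10: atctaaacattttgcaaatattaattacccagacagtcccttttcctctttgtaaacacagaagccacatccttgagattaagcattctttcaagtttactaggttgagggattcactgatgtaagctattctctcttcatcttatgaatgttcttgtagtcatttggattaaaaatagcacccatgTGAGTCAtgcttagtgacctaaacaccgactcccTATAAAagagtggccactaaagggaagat

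The AP-1 letters TGAGTCA began 46 bases before the start in Mmp3 and 63 bases before it in Mmp10, and TATAAA began 7 and 29 bases before the start. Among all 32851 promoters of the same length, 6.75% held TGANTCA and 12.4% held TATAAA in either orientation. The 6 entries of Mmp14, Mmp23, Timp1, Timp2 and Timp3 held neither. Mmp2 and Mmp19 had no entry. A match of letters is a description of the window and not a measured binding site.

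**Figure D1:**
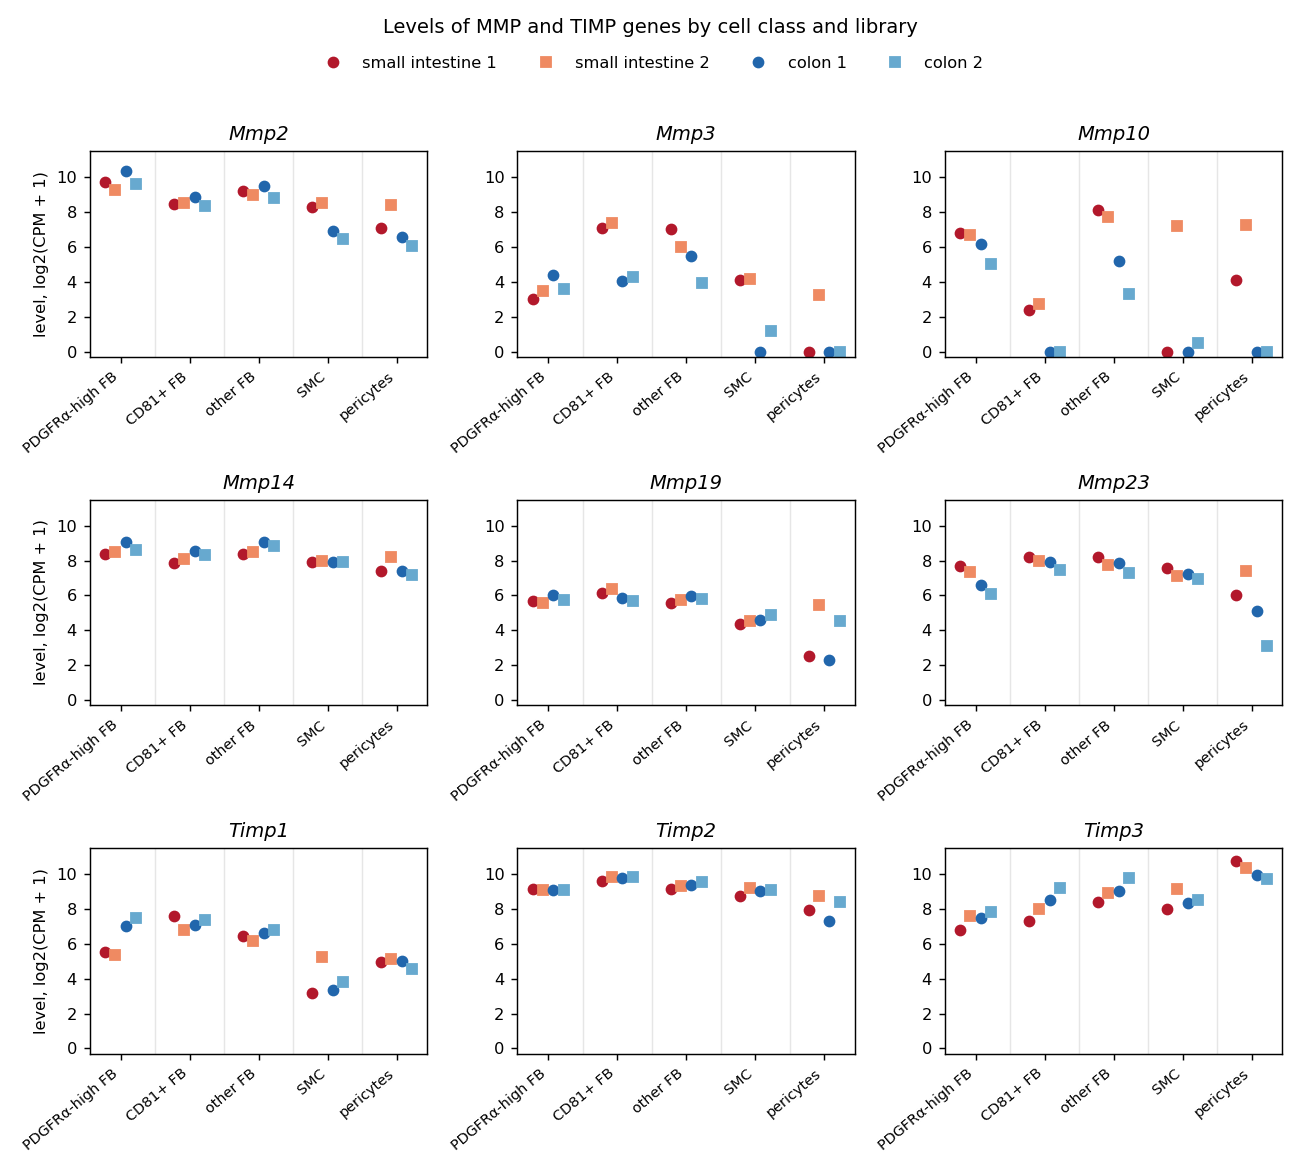
Level of each member in each cell class and library, as log2(CPM + 1), where CPM are UMIs per 1000000 UMIs of the class. Each point is 1 library (circles, replicate 1; squares, replicate 2). Mmp3 and Mmp10 lie higher in small intestine than in colon in CD81+ FB and other FB, and Timp3 lies highest in pericytes in 3 of 4 libraries.

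Mmp10 differed widely between classes. In other FB its level was 277 CPM in small intestine 1, 211 CPM in small intestine 2, 36.2 CPM in colon 1 and 9.1 CPM in colon 2. PDGFRα-high FB had 110 and 103 CPM in small intestine and 72.0 and 31.5 CPM in colon, in the same order. CD81+ FB had 4.2 and 5.6 CPM in small intestine and no UMI in either colon library. The small intestinal values rested on 11 UMIs in 2 of 310 cells and on 49 UMIs among 2936 cells. Every small intestinal value thus exceeded every colonic value in these 3 classes. Against the mean of the other classes, Mmp10 was higher in PDGFRα-high FB (log2 fold change 2.79 ± 0.72 SE, edgeR quasi-likelihood adjusted p = 0.011) and in other FB (2.61 ± 0.65, adjusted p = 0.014), and lower in CD81+ FB (-4.40 ± 1.11, adjusted p = 0.0079). A call in these comparisons, over 11496 genes, needed a log2 fold change of more than 1.5 in size together with an adjusted p below 0.05. By that rule 3.76% of genes were called higher and 4.49% lower in PDGFRα-high FB, 4.32% and 3.87% in CD81+ FB, and 2.37% and 1.48% in other FB. The call in PDGFRα-high FB was lost without colon 1 (adjusted p = 0.115) and without colon 2 (0.0964), that in other FB without small intestine 1 (0.122), colon 1 (0.0813) or colon 2 (0.0554), and that in CD81+ FB without small intestine 2 (0.365), with classes from clusters (0.0994) and with the stricter gate (0.0646).

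Other FB were then divided into cells nearer the Fgfr2 profile and cells nearer the profile of Igfbp5, Thy1, Cd34, Pparg and Stmn2. On the Fgfr2 side the level of Mmp10 was 955 and 554 CPM in small intestine and 56.2 and 16.7 CPM in colon. On the Igfbp5 or Thy1 side it was 34.7 and 32.2 CPM in small intestine and 1.0 and 0.78 CPM in colon. In each library the Fgfr2 side was therefore higher, by 27.5-fold and 17.2-fold in small intestine and by 56.3-fold and 21.6-fold in colon, where the lower side held 3 and 7 UMIs. Between 90.0% and 99.0% of the Mmp10 UMIs of other FB came from the Fgfr2 side. With each cell thinned to 2000 UMIs, 39.0% (95% exact binomial interval 31.9 to 46.5) and 38.4% (36.4 to 40.5) of small intestinal Fgfr2-side cells had an Mmp10 UMI, against 3.20% (1.91 to 5.01) and 1.61% of colonic ones. Unthinned, the small intestinal shares were 40.7% and 40.9%. In endothelial cells, which should lack the gene, 0 of 321 cells of small intestine 1 and 0 of 226 cells of colon 1 had one after thinning, which allows shares of up to 0.935% and 1.33%, at median depths of 4451 and 5048.5 UMIs before thinning. Colonic CD81+ FB had none in 205 and 1990 thinned cells, which allows up to 1.46% and 0.151%. Intervals and limits cover counting error only.

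**Figure D2:**
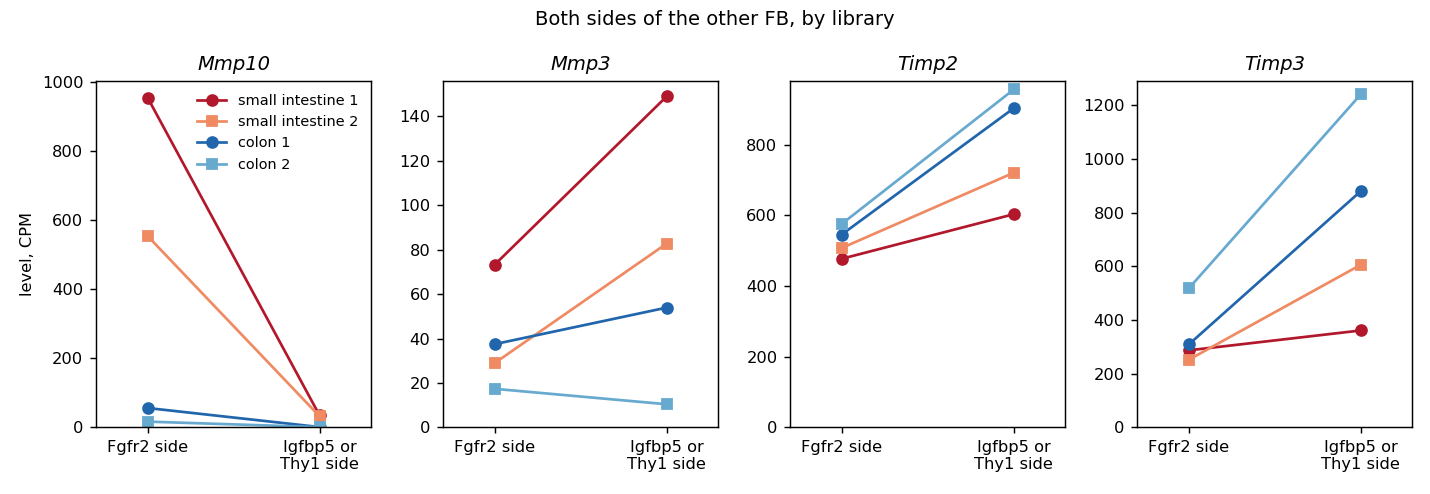
Levels in CPM of Mmp10, Mmp3, Timp2 and Timp3 on the Fgfr2 side and on the Igfbp5 or Thy1 side of other FB. Lines join the values of 1 library. Mmp10 falls from 955 and 554 CPM to 34.7 and 32.2 CPM in small intestine, whereas Timp2 and Timp3 are higher on the Igfbp5 or Thy1 side in all 4 libraries.

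Mmp3 was highest in CD81+ FB and other FB in small intestine, and in CD81+ FB it passed the test between intestines. In colon these classes did not both stand apart. PDGFRα-high FB of colon 1 had 20.4 CPM against 15.5 CPM in CD81+ FB. In colon 2 PDGFRα-high FB, CD81+ FB and other FB had 11.2, 18.4 and 14.0 CPM. CD81+ FB had 134 and 166 CPM in small intestine and 15.5 and 18.4 CPM in colon, so the groups did not overlap and the mean level was 8.86-fold higher in small intestine. The log2 fold change, colon against small intestine, was -3.28 ± 0.28 (edgeR adjusted p = 0.027). It was the only member called between intestines in any class by this test, which had no replicate block. Of all 11472 genes tested in CD81+ FB, 0.628% were called in either direction. The within-number log2 ratios were -3.04 for replicate 1 and -3.10 for replicate 2, and the fold change lay between -3.47 and -3.15 over the 11 alternatives. After thinning, 10.7% and 11.3% of small intestinal CD81+ FB had an Mmp3 UMI, against 1.95% and 2.11% of colonic ones, and 0 of 321 and 0 of 226 endothelial cells of small intestine 1 and colon 1 had one.

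In other FB the level of Mmp3 was 129 and 64.3 CPM in small intestine and 43.4 and 14.0 CPM in colon, which did not overlap but missed the threshold (log2 fold change -1.80 ± 0.63, adjusted p = 0.428, edgeR). It passed with the replicate number as a block (-1.90, edgeR adjusted p = 0.00019), a pairing that the labels do not state. Within other FB the Igfbp5 or Thy1 side was higher in 3 libraries (149 against 73.2, 82.7 against 28.9 and 53.9 against 37.5 CPM) and lower in colon 2 (10.4 against 17.4 CPM). PDGFRα-high FB had 7.3, 10.2, 20.4 and 11.2 CPM in small intestine 1 and 2 and colon 1 and 2, where the colon values lay above those of small intestine. SMC had 16.4 and 16.9 CPM in small intestine and 0 and 1.3 CPM in colon, the last from 3 UMIs (log2 fold change -4.40 ± 0.97, adjusted p = 0.092, edgeR), and passed with DESeq2 (0.0204) and without the filter on low counts (0.00039). The difference in SMC passed also with that block (-4.37, edgeR adjusted p = 4.5e-07). Against the other classes Mmp3 was higher in CD81+ FB (3.39 ± 0.68, adjusted p = 0.0018) and in other FB (2.77 ± 0.69, adjusted p = 0.014). The call in other FB was lost without small intestine 1 (adjusted p = 0.0934), without colon 1 (0.0748) and without colon 2 (0.0589).

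The difference in Mmp10 between intestines missed the threshold of the edgeR test in every class in which it was tested, and passed it under some alternatives. In other FB the mean level in small intestine was 10.8-fold that in colon (log2 fold change, colon against small intestine, -3.50 ± 0.70, edgeR adjusted p = 0.157), and on the Fgfr2 side 20.7-fold. It passed without colon 1 (-4.72, adjusted p = 0.0233), without colon 2 (-2.83, adjusted p = 0.0384) and with DESeq2 (adjusted p = 8.8e-07). The replicate number as a block also let it pass (-3.74, edgeR adjusted p = 0.0447). Within numbers the log2 ratios in other FB were -2.90 and -4.40. In CD81+ FB the level was at least 2.94-fold higher in small intestine, taken against a floor of 3 UMIs per colon library (adjusted p = 0.081), and it passed without colon 1 (0.0143), with DESeq2 (0.0050) and without the filter on low counts (6.2e-07). The difference in CD81+ FB passed too with the replicate number as a block (edgeR adjusted p = 0.0033). The small intestinal level there rested on only 11 and 49 UMIs. In PDGFRα-high FB the log2 fold change was -0.92 ± 0.41 (edgeR adjusted p = 0.468). That effect differed from the one in other FB in a test of the class by tissue term, by 2.71 ± 0.25 on the log2 scale (edgeR adjusted p = 6.3e-05). That test called 10.0% of 13030 genes for PDGFRα-high FB and 6.16% for CD81+ FB, each against other FB, at an adjusted p under 0.05 alone. Mmp10 was not tested between intestines in SMC and pericytes, where its counts were too low. Small intestine 2 had 147 CPM in SMC and 154 CPM in pericytes, against 0 to 0.4 CPM in the SMC and 0 to 16.5 CPM in the pericytes of the other libraries. Its SMC and pericytes were also those with the highest FB marker sums, and the part of these in the Mmp10 values was not tested.

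Mmp3 and Mmp10 UMIs were seldom in the same cells of small intestinal other FB. Mmp10 was detected in 7.7% and 5.6% of the cells with Mmp3 and in 14.7% and 15.8% of those without, at 2000 UMIs per cell. In colon the order was the reverse, with 13.8% and 7.7% of cells with Mmp3 against 1.4% and 0.82% of cells without. Only 4 cells in each colon library held both, and cells of 1 library are not replicates.

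**Figure D3:**
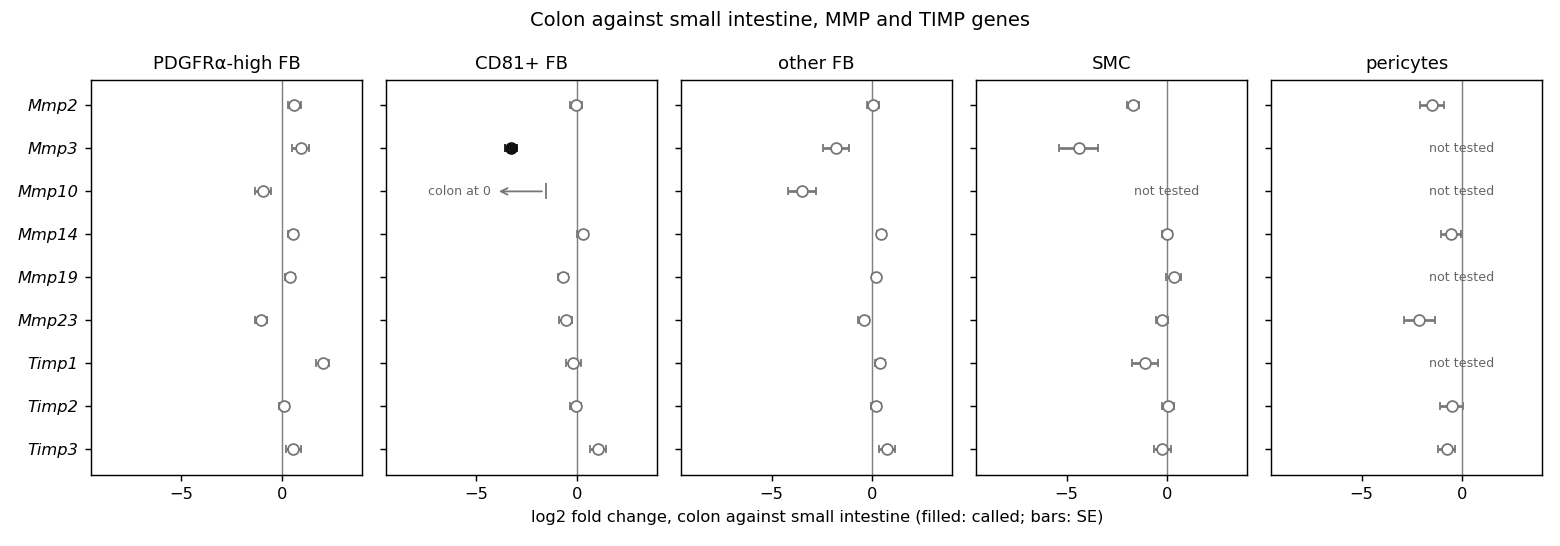
Log2 fold change of each member, colon against small intestine, from edgeR for each class, with bars of 1 SE; the filled point passed the test. Mmp3 in CD81+ FB is the filled point, and an arrow stands for Mmp10 in CD81+ FB, where both colon libraries were at 0 and the start of the arrow is the bound of 2.94-fold.

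Mmp2, Mmp14 and Timp2 act together at the cell surface. Mmp2 encodes gelatinase A, which cuts denatured collagen and basement membrane collagen. Mmp14 encodes a membrane-anchored collagenase that activates pro-Mmp2 through a complex with Timp2. Mmp2 (ENSMUSG00000031740, chr8:92827291-92853420) was highest in PDGFRα-high FB of every library. These cells had 842 and 623 CPM in small intestine and 1296 and 779 CPM in colon, other FB 595, 512, 732 and 457 CPM, and CD81+ FB 352, 371, 459 and 326 CPM, in the order small intestine 1 and 2, colon 1 and 2. The order PDGFRα-high FB, other FB, CD81+ FB held in 4 of 4 libraries, and each step exceeded the spread of its log2 ratio between libraries. Mmp2 was called higher in PDGFRα-high FB against the other classes (1.56 ± 0.29, edgeR adjusted p = 0.0010). The fold change fell under the limit of 1.5 without colon 1 (1.28), without colon 2 (1.38) and with doublets kept (1.33). In pericytes it was called lower (-1.80 ± 0.39, adjusted p = 0.0040) and also without small intestine 2 (-2.25), but not with doublets kept (-1.31). For pericytes 5.25% of genes were called higher and 2.09% lower.

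Between intestines Mmp2 did not pass in any class, and its groups overlapped in all 3 FB classes. SMC had 315 and 374 CPM in small intestine and 122 and 88.5 CPM in colon (log2 fold change -1.69 ± 0.31, edgeR adjusted p = 0.0557), just short of the threshold, and it passed without colon 1 (adjusted p = 0.0193), with DESeq2 (0.0047), without the filter on low counts (0.00038) and with classes from clusters (0.0313). Without small intestine 2 the log2 fold change was -1.55 (adjusted p = 0.170). Mmp2 in SMC passed also with the replicate number as a block (-1.72, edgeR adjusted p = 1.6e-19). SMC of small intestine also held more FB marker RNA (10699 and 17928 CPM) than those of colon (5955 and 7296 CPM), and its part in the Mmp2 values was not tested. The test called 1.90% of 9458 genes in SMC. The tissue effect differed between PDGFRα-high FB and other FB by 0.58 ± 0.15 (adjusted p = 0.015), a call lost without small intestine 2 (adjusted p = 0.135), colon 1 (0.0707) or colon 2 (0.0716).

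Mmp14 (ENSMUSG00000000957, chr14:54431612-54445364) varied little between classes. Its level ranged from 336 to 531 CPM in other FB, 338 to 532 CPM in PDGFRα-high FB, 234 to 370 CPM in CD81+ FB, 240 to 249 CPM in SMC and 141 to 291 CPM in pericytes. Colonic values exceeded small intestinal ones in each FB class without passing the test (log2 fold changes 0.28 to 0.56, adjusted p from 0.521 to 0.887). Other FB had an adjusted p of 0.0013 against the other classes and pericytes of 0.00027, but the log2 fold changes (0.70 and -0.97, the latter -1.21 without small intestine 2) stayed under the limit. Timp2 (ENSMUSG00000017466, chr11:118301069-118355740, minus strand) was highest in CD81+ FB in 4 of 4 libraries, with 774, 906, 865 and 926 CPM. Other FB followed with 570, 647, 675 and 758 CPM. PDGFRα-high FB were nearly constant at 559, 553, 543 and 535 CPM. Against the other classes the log2 fold change of Timp2 was 1.14 ± 0.13 in CD81+ FB (adjusted p = 2.3e-06) and -1.34 ± 0.16 in pericytes (adjusted p = 5.4e-06), both inside the limit of 1.5. Pericytes passed that limit without small intestine 2 (-1.54), with classes from clusters (-1.83) and with the stricter gate (-1.79). In other FB the Igfbp5 or Thy1 side exceeded the Fgfr2 side by 1.26-fold and 1.42-fold in small intestine and by 1.66-fold in each colon library.

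Mmp19 encodes a secreted enzyme that cuts basement membrane proteins, and Mmp23 a membrane-bound enzyme that is released by cleavage. Mmp19 (ENSMUSG00000025355, chr10:128790910-128800824) had 70.0 and 82.4 CPM in CD81+ FB of small intestine and 55.8 and 50.4 CPM in those of colon. In PDGFRα-high FB it had 50.8, 47.0, 64.9 and 51.5 CPM, and in other FB 46.0, 53.0, 60.5 and 54.9 CPM. Small intestine was thus the higher one in CD81+ FB and the lower one, by a small margin, in PDGFRα-high FB. The effect in CD81+ FB differed from that in other FB by -0.84 ± 0.16 (edgeR adjusted p = 0.0024), a call lost without colon 2 (adjusted p = 0.0516). Against the other classes CD81+ FB reached 1.45 ± 0.21 (adjusted p = 4.9e-05), short of the limit in fold, and passed it with classes from clusters (2.13), with the stricter gate (1.85) and without colon 2 (1.70). Pericytes were called lower (-2.37 ± 0.45, adjusted p = 0.00088), from only 2 to 5 UMIs per library, and lower also without small intestine 2 (-3.01).

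Mmp23 (ENSMUSG00000029061, chr4:155650655-155653384, minus strand) had 207 and 162 CPM in PDGFRα-high FB of small intestine and 97.4 and 66.6 CPM in those of colon. CD81+ FB had 291, 249, 238 and 175 CPM and other FB 291, 218, 229 and 158 CPM. In PDGFRα-high FB the groups did not overlap, but the log2 fold change of -1.04 ± 0.29 did not pass (edgeR adjusted p = 0.209). The test called 1.59% of 11595 genes in these cells. The effect differed from that in other FB by -0.61 ± 0.14 (adjusted p = 0.0061), a call lost without small intestine 2 (adjusted p = 0.0844). Pericytes were called lower than the other classes (-1.81 ± 0.31, adjusted p = 0.00042), with 63.7, 171, 33.9 and 7.4 CPM (the last from 1 UMI), and lower also without small intestine 2 (-2.35) but not with doublets kept (-1.29).

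Timp1 encodes a soluble inhibitor that acts weakly on membrane-bound MMPs, and its lowest levels in any FB class were in PDGFRα-high FB of small intestine. Timp1 (ENSMUSG00000001131) lies at chrX:20870166-20874735. PDGFRα-high FB had 45.0 and 40.4 CPM in small intestine and 132 and 182 CPM in colon, so the groups lay apart with a mean ratio of 3.67. CD81+ FB had 190, 111, 134 and 168 CPM, where the intestines overlapped, and other FB had 86.6, 69.6, 96.2 and 110 CPM. The log2 fold change in PDGFRα-high FB was 2.04 ± 0.32 (edgeR adjusted p = 0.065) and missed the threshold. It passed with DESeq2 (2.03, adjusted p = 0.00011), without the filter on low counts (2.06, adjusted p = 0.0013) and without colon 1 (2.31, adjusted p = 0.0043). It passed also with the replicate number as a block (2.06, edgeR adjusted p = 4.5e-18). The within-number log2 ratios were 1.53 and 2.14. The effect exceeded that in other FB by 1.61 ± 0.20 (edgeR adjusted p = 3.3e-05). At 2000 UMIs per cell 10.7% and 7.23% of small intestinal PDGFRα-high FB had a Timp1 UMI, against 17.8% and 20.5% of colonic ones, a narrower gap than in the summed levels.

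Against the other classes Timp1 was called higher in CD81+ FB (2.06 ± 0.33, adjusted p = 0.00032) and lower in SMC (-2.52 ± 0.52, adjusted p = 0.0027), where 3.87% of genes were called higher and 3.27% lower. SMC had 8.2, 37.2, 9.3 and 13.3 CPM, and the SMC call was lost without colon 1 (adjusted p = 0.0587) and kept without small intestine 2 (-3.18).

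The study separated colonic PDGFRα-high FB by Cd9 and Thbd, so their cells were read by which of these had more UMIs. Cells with more Cd9 (197 in colon 1 and 1530 in colon 2) had 237 and 271 CPM of Timp1, and cells with more Thbd (364 and 1090) had 64.8 and 58.3 CPM. Mmp2 was 1751 and 895 CPM in the former and 999 and 614 CPM in the latter. Mmp19 was 95.6 and 63.5 CPM against 43.4 and 31.1 CPM. Timp3 had the opposite order, 90.2 and 167 CPM against 232 and 307 CPM. Each order was the same in both colon libraries. In small intestine the cells with more Cd9 (11 and 134) had 16.3 and 24.5 CPM of Timp1, from 1 and 8 UMIs, and those with more Thbd 43.2 and 40.9 CPM. Timp1 of the Thbd cells of colon was thus nearer the small intestinal level than that of the Cd9 cells. These are descriptions by 2 genes per cell, without a test.

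**Figure D4:**
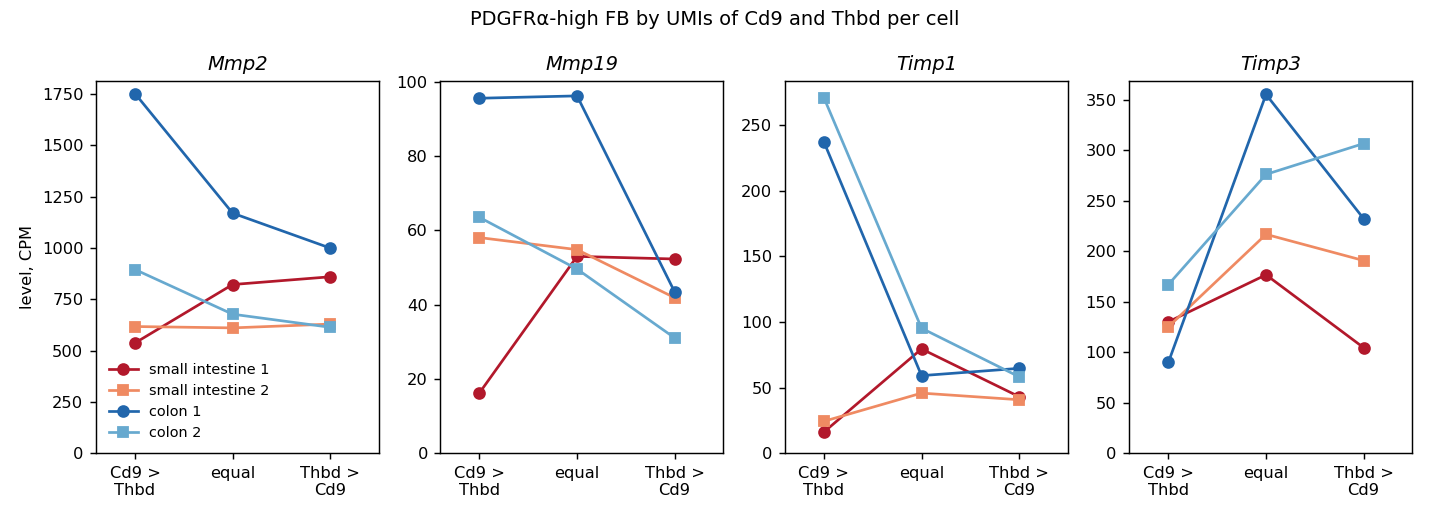
Levels in CPM of Mmp2, Mmp19, Timp1 and Timp3 in PDGFRα-high FB with more Cd9 than Thbd UMIs, as many, or more Thbd. Lines join the values of 1 library. In both colon libraries Timp1 is highest where Cd9 exceeds Thbd (237 and 271 CPM), and the small intestinal values reach at most 79.5 CPM.

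Timp3 encodes an inhibitor that binds to the matrix and also acts on ADAM proteases, and pericytes had the highest level of it in 3 of 4 libraries. Timp3 (ENSMUSG00000020044) lies at chr10:86300372-86349506. Pericytes had 1759 and 1328 CPM in small intestine and 1005 and 847 CPM in colon. Other FB had 342, 485, 516 and 865 CPM, CD81+ FB 160, 252, 359 and 581 CPM, and PDGFRα-high FB 112, 191, 180 and 225 CPM. In colon 2 other FB were at the level of pericytes. Timp3 was called higher in pericytes against the other classes (1.92 ± 0.26, edgeR adjusted p = 6.1e-05) and lower in PDGFRα-high FB (-1.77 ± 0.31, adjusted p = 0.00046). The pericyte value was 1.97 without small intestine 2, and 1.38, under the limit in fold, without small intestine 1. Endothelial cells left out of the classes had levels in the same range, 1642 CPM in small intestine 1, 1688 CPM in colon 1 and 1371 CPM in the 23 cells of colon 2. The 7 endothelial markers summed to 9.1 to 25.7 CPM in the pericyte sums, with 4 to 6 of them at 0, against 3719 to 7132 CPM in endothelial cells.

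Between intestines Timp3 was higher in colon in CD81+ FB (log2 fold change 1.05 ± 0.38, adjusted p = 0.448) and other FB (0.73 ± 0.40, adjusted p = 0.645), and lower in pericytes (-0.76 ± 0.42, adjusted p = 1.00), in each case without overlap and without passing the edgeR test. Without small intestine 2 the value in pericytes was -0.94. In other FB the Igfbp5 or Thy1 side exceeded the Fgfr2 side in every library, by 1.26-fold, 2.40-fold, 2.85-fold and 2.40-fold. The sides thus had the opposite order for Timp3 and Mmp10.

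Across the members, 1 of 45 combinations of gene and class passed between intestines, with 40 tested. The test called 0.560% of 12867 genes in other FB and 0.00% of 4630 in pericytes, where edgeR left 120 genes at an unadjusted p under 0.05 and DESeq2 called 9. Median log2 fold changes of the members were 0.56 in PDGFRα-high FB, -0.17 in CD81+ FB, 0.20 in other FB, -0.23 in SMC and -0.76 in pericytes, against 0.017, -0.0043, 0.0052, 0.025 and 0.0048 over all genes tested. The medians covered 9, 9, 9, 8 and 5 members, and that in CD81+ FB was the same with Mmp10 at its bound. In the class comparisons DESeq2 divided the calls of other FB into 221 higher and 227 lower, where edgeR gave 273 and 170.

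Of the 18 other MMP and TIMP genes, few reached counts that could be tested. Between 1 and 8 were tested between intestines in a class, and none was called. In the class comparisons 4 were tested. Mmp11, Mmp16 and Mmp17 were called lower in PDGFRα-high FB (-2.21, -2.44 and -2.61). Mmp16, a membrane-anchored enzyme, was called higher in CD81+ FB (2.52) and other FB (1.69), and Mmp17, which is linked to the membrane by a lipid anchor, in SMC (2.10). Mmp9 (the other gelatinase) and Mmp7 (matrilysin), named after their values had been seen, stayed between 0 and 2.7 CPM and without a UMI in the 5 classes.

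A list of 30 genes that activate or restrain matrix proteolysis was read beside the members. Between intestines 2 of its 27 tested genes rose and 1 fell in PDGFRα-high FB, none of 26 in CD81+ FB, none of 28 in other FB, 1 rose and 1 fell of 26 in SMC, and none of 19 in pericytes. Plau, which encodes the urokinase that generates plasmin, had 7.3 and 4.9 CPM in PDGFRα-high FB of small intestine and 286 and 142 CPM in those of colon (5.30 ± 0.49, adjusted p = 0.026). It also rose in colonic SMC (5.44 ± 0.89, adjusted p = 0.038). Htra1, a secreted serine protease, rose in colonic PDGFRα-high FB (2.05 ± 0.27, adjusted p = 0.045), and Adam12 fell (-2.99 ± 0.31, adjusted p = 0.029). Htra3 fell in colonic SMC (-4.95 ± 0.46, adjusted p = 0.012). All 5 calls kept their direction under the alternatives, and each was lost under at least 1. Without small intestine 1 or without small intestine 2, edgeR called 0 genes in PDGFRα-high FB, so Plau, Htra1 and Adam12 were lost there, Htra1 also without colon 2 and with doublets kept. In SMC the call of Plau was lost without small intestine 1, without small intestine 2 and with doublets kept, and that of Htra3 with doublets kept. Against the other classes 3 rose and 3 fell of 27 in PDGFRα-high FB, among them Serpine2 (-5.19), an inhibitor of urokinase and thrombin, Serpinf1 (-4.16) and Plau (2.89). In CD81+ FB 4 rose and 1 fell, among them Serpinf1 (3.95), Plau (-3.43) and Tfpi2 (2.87). In other FB 3 rose, Serpine2 (2.31), Htra3 (2.04) and Serpinf1 (1.89), and none fell. In SMC 2 rose and 4 fell, led by Thbs2 (-2.95), Tfpi2 (-2.78) and Plat (-2.71). In pericytes Serpine2 alone rose (3.07) and none fell. Of these and the calls of other MMP genes, 27 in all against the other classes, 15 held under every alternative run and 12 were lost under at least 1.

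Immediate early genes, whose Fos and Jun members form AP-1 and which also rise when tissue is digested, were summed beside the members. The 10 genes summed to 13466 and 20811 CPM in PDGFRα-high FB of small intestine and to 40741 and 40721 CPM in those of colon. In CD81+ FB the sums were 27960, 31435, 48820 and 51248 CPM, and in other FB 23366, 30156, 36028 and 46990 CPM. SMC had 24002, 26358, 30225 and 21887 CPM, where the intestines overlapped. None of the 10 was called between intestines in any class by edgeR, but 6 of 10 passed the test of the difference between PDGFRα-high FB and other FB. The sums of the 3 FB classes were higher in colon, as Timp1 was in PDGFRα-high FB. Mmp10 was lower in colon in all 3 classes. Mmp3 was lower in colon in CD81+ FB and other FB, and higher in PDGFRα-high FB. The part of the digestion in any of these values was not tested, because which enzyme and kit each library had is not stated.

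Genes whose pattern was most like a member's were sought over the 20 sums of library and class among 6308 genes, by Pearson r of log2(CPM + 10), as a description in which the points share libraries and depth. Mmp2 was most like Pdpn (r = 0.95), Fkbp10 (0.91) and Fam174b (0.90). Mmp3 was most like Col1a1 (0.88), Npc2 (0.87) and Ppib (0.86), and Mmp10 most like Col6a5 (0.83), Pag1 (0.82) and Adam10 (0.82). Pdpn and Col1a1 are among the markers that set the classes. Mmp14 was nearest to Arsj (0.91), Fkbp10 (0.90) and Cmpk1 (0.88). Mmp19 was nearest to Creb3l1, Kdelr2 and B3gnt9 (0.92 each), and Mmp23 to Nenf (0.91), Nsmaf (0.90) and Celf2 (0.87). Timp1 was nearest to Ctsh (0.90), Hpgd (0.89) and Ly6c1 (0.89), Timp2 to Lpar1 (0.92), Rpl11 (0.91) and S100a16 (0.91), and Timp3 to Rap2a, Ptprf and Fam107b (0.86 each). Between members r was highest for Mmp2 with Mmp14 and for Mmp19 with Timp2 (0.87 each). Mmp3 and Mmp10, although neighbours, had r = 0.29, and Timp3 was negative with each of the other 8 (-0.56 to -0.11).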

How the data were processed

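The authors sorted mesenchymal stromal cells from small intestine and colon, made 4 droplet libraries with a 3′ or 5′ kit, aligned reads to mm10 and counted unique molecular identifiers (UMIs) with Cell Ranger. Small intestine 1 and colon 1 were made with version 3.0.2 and the other libraries with 3.1.0, as their headers show, whereas the submitters' processing notes name 3.0.2 (and Seurat 3). The values deposited by the authors were raw UMI counts per gene and barcode, with no normalization. Total counts ranged from 14341443 to 52269372 UMIs per library, and median depth per kept cell from 2686.5 to 8809 UMIs.

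Barcodes under 500 genes or 1000 UMIs, or with over 10% mitochondrial UMIs, were dropped. The automatic threshold of scrublet (scanpy 1.11.5, Python 3.11.15) marked only 2, 0, 39 and 417 barcodes, so the highest scores were removed at 0.8% per 1000 barcodes (30, 2051, 50 and 1374 in small intestine 1 and 2 and colon 1 and 2). Marker genes alone then assigned each cell. Endothelial, plasma, immune, glial, nerve-associated, epithelial, mesothelial cells and interstitial cells of Cajal (1182 cells) were removed by the number of their markers detected. Pericytes needed at least 3 of their markers. The rest took the class with the highest negative binomial likelihood over 45 marker genes, and SMC needed 2 markers beyond Acta2 and Tagln. Of all cells 16.7% lay near a cut between classes, and 93.2% lay in a cluster of the same class. The markers were fixed at the outset, and the scoring rule was set after the cells had been seen.

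UMIs were summed per library and class (at least 10 cells) and entered the quasi-likelihood test in edgeR 4.0.16 (R 4.3.3, filterByExpr, TMM, robust fit) over all genes, with Benjamini-Hochberg adjustment. Intestines were compared within a class, and classes with library as a block. Calls needed a log2 fold change of more than 1.5 in size and an adjusted p below 0.05, and class by tissue terms the latter alone. The steps were tested on simulated counts. CPM are UMIs per 1000000 UMIs of the class, and ± marks the standard error. Members and gene lists were chosen with earlier results of these data known. All 9 members are named, genes of the lists where called (at most 3 a comparison, by size), and the 3 genes most like each member. Alternatives were DESeq2 1.42.0, no low-count filter, classes from clusters, a stricter gate, at least 1000 genes per cell, doublets kept, the replicate number as a block, and leaving out each library. Positions are from GENCODE vM21.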

Additional observations from a re-analysis of the deposited data

Results flagged for a closer look

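In 5 cases the difference between intestines was not the same in 2 FB classes by a test of the class by tissue term (edgeR, over all genes). Against other FB, the effect in PDGFRα-high FB (colon against small intestine, log2) was higher by 0.58 for Mmp2 (adjusted p = 0.015), by 2.71 for Mmp10 (adjusted p = 6.3e-05) and by 1.61 for Timp1 (adjusted p = 3.3e-05), and for Mmp23 it differed by -0.61 (adjusted p = 0.0061). The effect on Mmp19 in CD81+ FB differed from that in other FB by -0.84 (adjusted p = 0.0024). Of 13030 genes, 10.0% passed this test for PDGFRα-high FB and 6.16% for CD81+ FB. The call of Mmp2 was lost without small intestine 2, colon 1 or colon 2, that of Mmp23 without small intestine 2 and that of Mmp19 without colon 2.

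In other pairs of classes every library of colon lay on one side of small intestine in one class and on the other side in the other class. The differences between these effects, in mean log2(CPM + 1), were not tested. They were 3.86 for Mmp3 between PDGFRα-high FB and CD81+ FB, 4.22 for Mmp3 between PDGFRα-high FB and SMC, 0.76 for Mmp19 between PDGFRα-high FB and CD81+ FB, -0.82 for Mmp19 between CD81+ FB and SMC, 1.92 for Timp3 between CD81+ FB and pericytes, and 1.48 for Timp3 between other FB and pericytes. The share of all genes with such a pattern was not counted, so these pairs cannot be called unusual. Some gaps were small, as for Mmp3 in PDGFRα-high FB with 10.2 CPM in small intestine 2 and 11.2 CPM in colon 2.

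Among cells left out of the classes, endothelial cells carried Timp3 at 1642 CPM in small intestine 1 and 1688 CPM in colon 1.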

How the results depend on the processing

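Of 1010 values of single members under the alternatives, 929 kept their direction and side of the threshold, 32 newly passed it, 23 no longer passed it and 26 changed direction. Those 26 belonged to 16 combinations of member and comparison, and 0 were called in either setting. Between intestines they were Mmp14 in SMC (0.057 with no low-count filter, 0.048 with the stricter gate, -0.033 to 0.024 leaving out 1 library), Timp2 in SMC (-0.0085 at 1000 genes per cell, -0.15 to 0.32 leaving out 1 library) and Timp2 in pericytes (0.024 with the stricter gate). Leaving out 1 library also gave, between intestines, -0.28 to 0.14 for Mmp2, -0.51 to 0.34 for Timp1 and -0.16 to 0.028 for Timp2 in CD81+ FB, -0.25 to 0.32 for Mmp2 in other FB, and -1.70 to 0.49 for Timp1 and -0.70 to 0.48 for Timp3 in SMC. It gave, against the other classes, -0.072 to 2.43 for Mmp3 in PDGFRα-high FB and -0.085 to 0.28 for Mmp23 in SMC (-0.017 with doublets kept), and for the difference of the tissue effect -0.29 to 0.10 for Timp3 in PDGFRα-high FB and -0.20 to 0.036 for Mmp2 in CD81+ FB. The others were Timp2 in PDGFRα-high FB (0.0073 with the stricter gate), Mmp19 in SMC (0.041 with classes from clusters) and the tissue difference of Timp3 in CD81+ FB (-0.21 with classes from clusters). Of 19 calls of members, 7 held under every alternative run and 12 were lost under at least 1. Counts of all genes called moved more. For PDGFRα-high FB, CD81+ FB, other FB, SMC and pericytes, calls between intestines numbered 184, 72, 72, 180 and 0. DESeq2 gave 544, 256, 440, 303 and 9, and no low-count filter 608, 457, 318, 626 and 32. Classes from clusters gave 110 in CD81+ FB, and keeping doublets gave 115 in PDGFRα-high FB and 29 in SMC. Leaving out 1 library gave 0 to 475 in PDGFRα-high FB (0 without small intestine 1 or 2, 475 without colon 1, 307 without colon 2), 74 to 206 in CD81+ FB (206 without colon 1), 0 to 134 in other FB (0 without small intestine 2, 134 without colon 2), 92 to 303 in SMC (92 without small intestine 2, 303 without colon 1) and 0 to 15 in pericytes (3 without small intestine 1, 15 without small intestine 2). A group left with 1 library was taken to vary like the other. Against the other classes these ranges were 278 to 496 in other FB (main 443, 278 without colon 1), 520 to 1017 in SMC (main 821, 541 without colon 1, 520 without colon 2) and 519 to 1044 in pericytes (main 843, 519 without colon 1). For the difference of the tissue effect they were 709 to 1091 in PDGFRα-high FB (main 1305, 709 without small intestine 2, 792 without colon 2) and 315 to 761 in CD81+ FB (main 802, 424 without small intestine 2, 315 without colon 2), each against other FB. The cause of these changes was not tested. Without a low-count filter the median of all genes shifted to 0.115 (SMC between intestines), 0.129 (other FB against the other classes), -0.133 (SMC) and -0.212 (pericytes).

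With the replicate number as a block, calls between intestines numbered 919, 447, 708, 669 and 61 in the same order of classes, and 7 combinations of member and class passed instead of 1. These were Timp1 in PDGFRα-high FB (adjusted p = 4.5e-18), Mmp3 (3.4e-05) and Mmp10 (0.0033) in CD81+ FB, Mmp3 (0.00019) and Mmp10 (0.0447) in other FB, and Mmp2 (1.6e-19) and Mmp3 (4.5e-07) in SMC. The labels do not say that the numbers pair the libraries. Deviations of same-numbered libraries correlated at 0.72, 0.62, 0.77, 0.57 and 0.53 over genes in these classes, with only 2 pairs.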
